A study of Mus musculus with 3 samples.

Results

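The CC chemokine ligands described here are 10 genes, Ccl2, Ccl3, Ccl4, Ccl5, Ccl6, Ccl7, Ccl9, Ccl12, Ccl22 and Ccl24, out of 23860 genes with a column in either of 2 single-cell count tables of mouse liver. They were chosen as listed gene symbols, though with earlier results of these data known, and all 10 had UMIs in both tables. The cells were liver non-parenchymal cells captured with the BD Rhapsody system, in which each counted molecule carries a unique molecular identifier (UMI). One table, called the control library here, held wild-type mice and was assigned to its sample by elimination. Its sample title reads MCD, the study's name for a methionine-choline deficient diet, whereas the study sets normal chow diet (NCD) against the other diet, so its diet rests on the study's text. The table's own header names the library APAP0h, which is neither diet. Cells strictly inside the limits on genes and mitochondrial UMIs numbered 23312 in it, equal to the count of cells kept from NCD livers in the study's text. The same limits left 19599 cells in the HFHC pool, which does not equal the counts of HFHC cells given there. The other table, the HFHC pool, held wild-type and Chil1-/- mice together, all on a high-fat, high-cholesterol (HFHC) diet, with no genotype given per cell here. Chil1-/- mice lack chitinase-like protein Chi3l1 in all cells, and all mice had a C57BL/6 J background. The number and age of the mice were not given in the sources used here. With 1 library per condition there is no replicate, no test between libraries was possible, and diet, genotype mixture, capture and library cannot be told apart.

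CC chemokines are small secreted proteins, named for a pair of neighbouring cysteines, that bind G protein-coupled receptors and direct the movement of leukocytes along their gradients. Ccl2, Ccl7 and Ccl12 act on Ccr2 and draw inflammatory monocytes out of the bone marrow and into tissue. Ccl3 and Ccl5 act on Ccr1, a receptor of neutrophils and monocytes, and Ccl4 is the close relative of Ccl3. Ccl6 and Ccl9 are rodent ligands of Ccr1, Ccl24 is the eotaxin that acts on Ccr3 of eosinophils and basophils, and Ccl22 acts on Ccr4 of T helper and regulatory T cells. In the liver, Kupffer cells (KCs), the resident macrophages, are a known source of several of them.

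On mouse build GRCm38, 8 of the 10 are protein-coding genes in neighbouring groups on chromosome 11. The first group is Ccl2 (chr11:82035571-82037453, plus strand), Ccl7 (chr11:82045712-82047525, plus) and Ccl12 (chr11:82101845-82103400, plus). The other is Ccl5 (chr11:83525778-83530518, minus), Ccl9 (chr11:83572919-83578636, minus), Ccl6 (chr11:83587882-83593087, minus), Ccl3 (chr11:83647844-83649355, minus) and Ccl4 (chr11:83662584-83664683, plus). Ccl24 lies at chr5:135569937-135573049 (minus) and Ccl22 at chr8:94745590-94751699 (plus).

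After filtering, the control library held 23346 cells and 49509045 UMIs (median 1322.5 UMIs per cell) and the HFHC pool 19625 cells and 52044785 UMIs (median 1622). Clustering without the CC ligands gave 18 classes, named by marker genes except for 1 myeloid cluster. Unnamed were 963 cells of the control library (4.12%) and 3925 of the HFHC pool (20%), with a median of 3039 and 505 UMIs, and a further 42 and 3 cells were mixed. The unnamed cells held between 0.863% (Ccl5) and 12.6% (Ccl9) of a ligand's kept UMIs in the HFHC pool and between 2.72% (Ccl5) and 14.9% (Ccl24) in the control library. Hepatocytes were 29.5% of the kept cells of the control library and 45.2% in the HFHC pool, although the study describes non-parenchymal cells. Their median depth was 531 and 1105 UMIs. Of 14 KC markers, all were highest in the KC class in both libraries. Of 12 markers of monocyte-derived macrophages (MoMFs), 4 and 5 were highest in the cells called MoMF, the rest being shared with other myeloid classes. The myeloid cluster without a marker name, led by Ly6i, Cxcl9, Clec4e, Acod1 and Cxcl10, is called the Ly6i cluster. It matched the monocyte and MoMF marker lists too closely to each other to be named for either. The libraries shared 507 kept cell barcodes, beside 518 that random labels would give.

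Levels are given as UMIs per 1000000 UMIs of the class (CPM) with exact Poisson 95% intervals, and shares with exact binomial 95% intervals, all of which cover counting error only. Beside a share of 0 cells, the limit given is the share that 3 cells would make, and it limits cells with a UMI, not cells that express the gene. A ratio is the level in the HFHC pool over that in the control library, and was called higher or lower when it passed 2-fold in a gene with at least 100 UMIs in the class over both libraries. Of 180 pairs of a ligand and a class, 76 had that many UMIs. Among them 34 were higher in the HFHC pool, 9 were lower and 33 lay within 2-fold. Over all genes and classes, 5.38% of pairs were higher and 4.08% lower. The higher pairs were uneven over the ligands: 30 of the 34 belonged to Ccl3, Ccl4 and Ccl5, whereas Ccl6 had none and 5 of the 9 lower pairs.

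**Figure D1:**
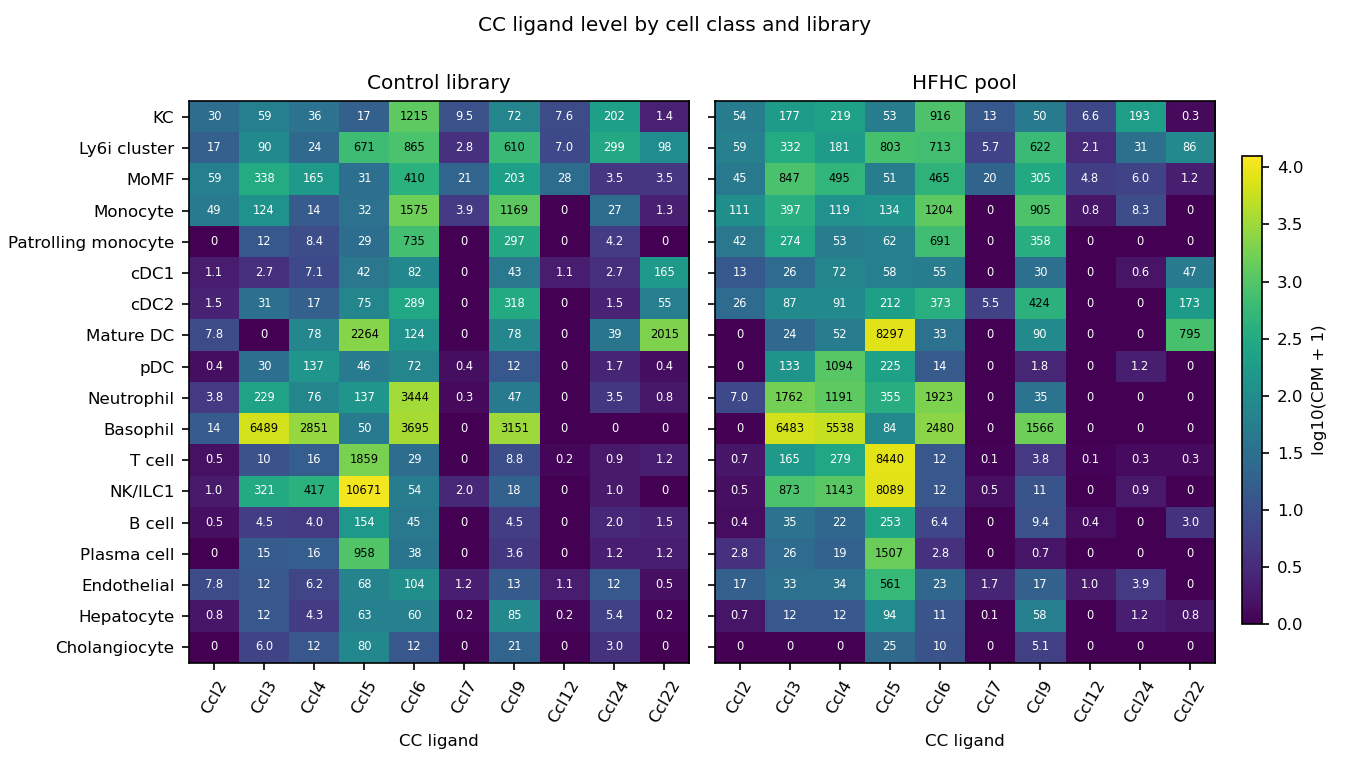
Levels of the 10 CC ligands in 18 cell classes of the control library (left) and the HFHC pool (right), as log10(CPM + 1) in colour and as CPM in the cells of the map. Basophils held the highest levels of Ccl3, Ccl4, Ccl6 and Ccl9 in both libraries, Ccl24 was highest in the Ly6i cluster (299 CPM) of the control library and in KCs (193 CPM) of the HFHC pool, and the neutrophil row differed between the libraries for Ccl3 (229 and 1762 CPM) and Ccl4 (76.1 and 1191 CPM).

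By class, KCs had 3 ligands higher and 0 lower of 9 counted, where all genes of that class gave 3.66% and 3.86%. Monocytes had 4 higher and 0 lower of 6 (4.51% and 3.47% of all genes), neutrophils 3 higher and 0 lower of 5 (8.12% and 4.45%), and T cells 3 higher and 1 lower of 4 (5.90% and 3.03%). The median ratio of all genes of a class lay at most 0.1 from 0 on the log2 scale in 17 of the 18 classes, and at -0.28 in plasma cells. Since the ligands make up a small list, these counts describe the members and are not evidence that CC ligands as a family differ from other genes.

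Filtering on genes per cell bears on where the ligands were found. The study's upper limit of 4000 genes removed 814 cells of the HFHC pool and 68 of the control library. In the HFHC pool those cells held 62.8% of all Ccl6 UMIs, 49.7% of Ccl2, 61% of Ccl7, 76.3% of Ccl12 and 78% of Ccl24, and 2.89% of Ccl5. In the control library they held between 0.136% (Ccl22) and 6.29% (Ccl12) of any ligand's UMIs. By their own markers 600 of the 814 cells were KCs. These 600 cells held 14518940 UMIs of all genes, beside 3615211 in the 396 kept KCs of the pool. A large share of a KC transcript in the removed cells is thus not particular to the ligands. Some ligand levels of the removed KCs were close to those of the kept KCs of the same pool, and others were not. Ccl24 was at 214 CPM (206 to 222) in the removed and 193 CPM (179 to 208) in the kept KCs, Ccl4 at 203 and 219 CPM and Ccl2 at 46.3 and 53.9 CPM, each with overlapping intervals. Ccl5 was at 83 CPM (78.4 to 87.8) in the removed and 53.4 CPM in the kept KCs, Ccl6 at 1157 CPM (1139.5 to 1175) and 916 CPM (885 to 948), and Ccl22 at 3.1 CPM on 45 UMIs and 0.277 CPM on 1 UMI.

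**Figure D2:**
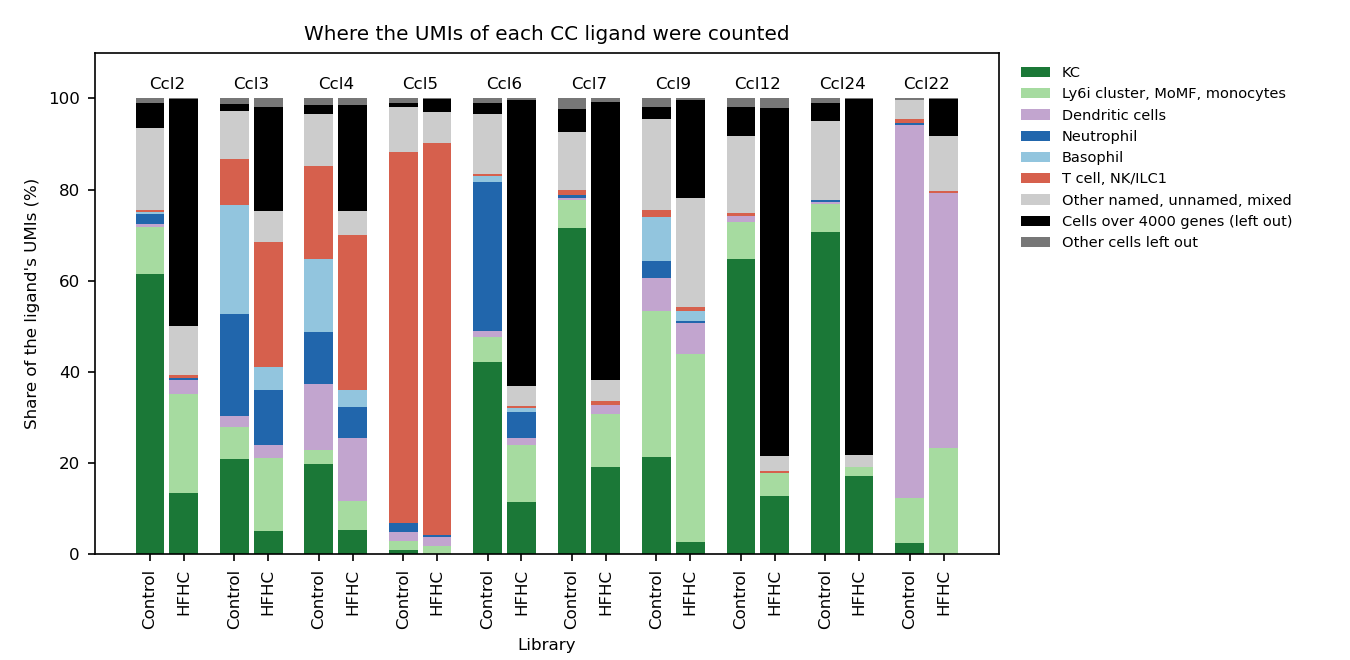
Share of each ligand's UMIs (percent of all cells of a library, y axis) that fell into each group of cell classes, with a pair of bars per ligand for the control library and the HFHC pool. Black marks cells over 4000 genes, which were left out of the levels and held 78% of the Ccl24 UMIs of the HFHC pool against 4.11% in the control library.

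The Ccr2 ligands were found at low levels, Ccl2 mainly in macrophages and monocytes. KCs held 65.7% of the kept Ccl2 UMIs of the control library (61.8 to 69.5%) and 26.9% in the HFHC pool (23.7 to 30.3%), where monocytes held 20.3% and the Ly6i cluster 15.7%. The share in the HFHC pool depends on the limit of 4000 genes: the removed cells held 718 Ccl2 UMIs beside the 725 of the kept cells, and 672 of the 718 lay in cells with KC markers. In the control library the removed cells held 36 Ccl2 UMIs beside 610. KCs themselves were 11.6% of the kept cells of the control library and 2.02% in the HFHC pool. Within KCs, Ccl2 was at 29.7 CPM (26.9 to 32.8) in the control library and 53.9 CPM (46.6 to 62.1) in the HFHC pool, a ratio of 1.82 (1.52 to 2.16), which did not pass 2-fold. In monocytes it was at 49.3 and 111 CPM, a ratio of 2.26 (1.57 to 3.32), and in the Ly6i cluster at 16.9 and 59.4 CPM, a ratio of 3.53 (1.94 to 7.03). Both fell within 2-fold in 2 alternatives each, at a log2 ratio down to 0.89 in monocytes (each library clustered on its own, or a mean over cells) and 0.92 in the Ly6i cluster (resolution 0.3, or CC ligands kept in the clustering). In MoMFs it was at 58.6 and 45.2 CPM, on 17 and 38 UMIs. After each cell was thinned to 1000 UMIs, 1.95% of KCs of the control library and 4.18% in the HFHC pool had a Ccl2 UMI (7.58% and 13.9% unthinned), beside 0.0971% and 0.118% of B cells, which are not known to make it.

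Few cells carried Ccl2 at all. In the HFHC pool 35 of 230 Ccl2-positive cells held 50% of its UMIs, and in the control library 75 of 339 did. Endothelial cells held 8.36% and 9.79% of Ccl2, at 7.76 and 17.3 CPM, with a single cell holding 36.6% of the endothelial UMIs of the HFHC pool.

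Ccl7 and Ccl12, the other Ccr2 ligands, had 166 and 146 UMIs in the control library and 92 and 40 in the HFHC pool. Both were found mainly in KCs, which held 77.1% and 70.5% of them in the control library and 50% and 60% in the HFHC pool. In KCs, Ccl7 was at 9.48 CPM in the control library and 12.7 CPM in the HFHC pool (ratio 1.34, 0.936 to 1.89). Ccl12 was at 7.63 and 6.64 CPM (0.87, 0.533 to 1.37), so that neither difference exceeded counting error. In MoMFs Ccl7 was at 20.7 CPM on 6 UMIs and 20.2 CPM on 17, of which a single cell held 3 and 12. Without that cell of each library MoMF Ccl7 was at 10.4 and 5.99 CPM, beside 8.53 and 10.8 CPM in KCs without theirs. MoMF Ccl12 was at 27.6 CPM on 8 UMIs and 4.76 CPM on 4.

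**Figure D3:**
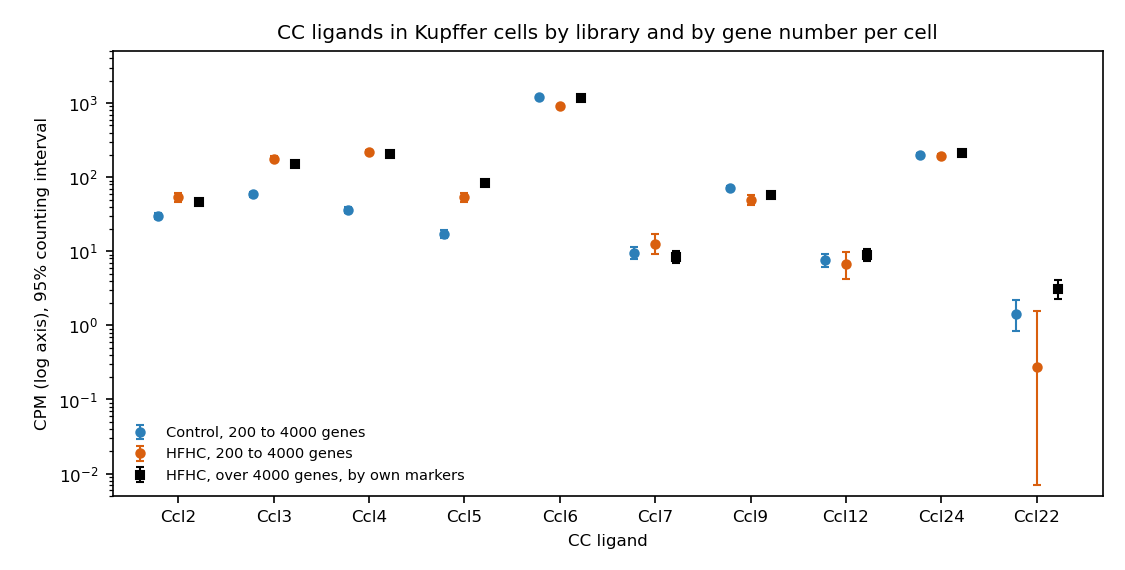
Levels of the 10 CC ligands in KCs (CPM on a log axis, points with 95% Poisson intervals) for the kept KCs of each library and for the 600 HFHC cells over 4000 genes with KC markers. Ccl3 and Ccl4 of both HFHC sets lay above the control library, and Ccl24 lay between 193 and 214 CPM in all sets.

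Ccl3 and Ccl4, the macrophage inflammatory proteins of the family, were basophil transcripts first in level. In basophils Ccl3 was at 6489 CPM (6073 to 6925) in the 75 cells of the control library and 6483 CPM (5982 to 7016) in the 19 cells of the HFHC pool, a ratio of 0.999 (0.901 to 1.11). Basophil Ccl4 was at 2851 and 5538 CPM, a ratio of 1.94 (1.7 to 2.22), also within 2-fold. Basophils were 0.321% of the kept cells of the control library and yet held 24.7% of its Ccl3 UMIs.

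Outside basophils, Ccl3 and Ccl4 were higher in the HFHC pool in almost every class with enough UMIs. Ccl3 was higher in 11 of 13 classes and Ccl4 in 11 of 12, the exceptions being basophils for both and hepatocytes for Ccl3, at 12 and 11.9 CPM. The widest ratios on many UMIs were in T cells and neutrophils. T cell Ccl3 was at 10.4 and 165 CPM, a ratio of 15.8 (12.2 to 20.9), and T cell Ccl4 at 15.5 and 279 CPM, a ratio of 18 (14.5 to 22.5). In neutrophils Ccl3 was at 229 CPM (214 to 245) in the control library and 1762 CPM (1675 to 1853) in the HFHC pool, a ratio of 7.69 (7.07 to 8.38). Neutrophil Ccl4 was at 76.1 CPM (67.4 to 85.5) and 1191 CPM (1119.6 to 1267), a ratio of 15.7 (13.7 to 17.9). The libraries' intervals did not overlap for either gene in neutrophils.

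The same difference was seen in the share of neutrophils with a transcript. After thinning, 8.64% of neutrophils of the control library (7.35 to 10.1%) and 45.8% in the HFHC pool (40.5 to 51.2%) had a Ccl3 UMI, and 4.35% and 33.5% a Ccl4 UMI. Without thinning the shares were 10.7% and 53.1% for Ccl3 and 4.45% and 38.6% for Ccl4. Among B cells (median depth 1316 and 2636 UMIs) the thinned share with Ccl3 was 0.388% and 0.947%. Thinning left out 8944 shallower cells of the control library and 7255 of the HFHC pool. Neutrophils were 3235 cells in the control library and 352 in the HFHC pool, with a median depth of 1021 and 2146 UMIs. The thinned neutrophils with and without a Ccl3 UMI were 147 and 1554 in the control library and 160 and 189 in the HFHC pool. Thinning thus left out a far larger part of the control neutrophils, and their thinned shares cover the deeper cells only.

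**Figure D4:**
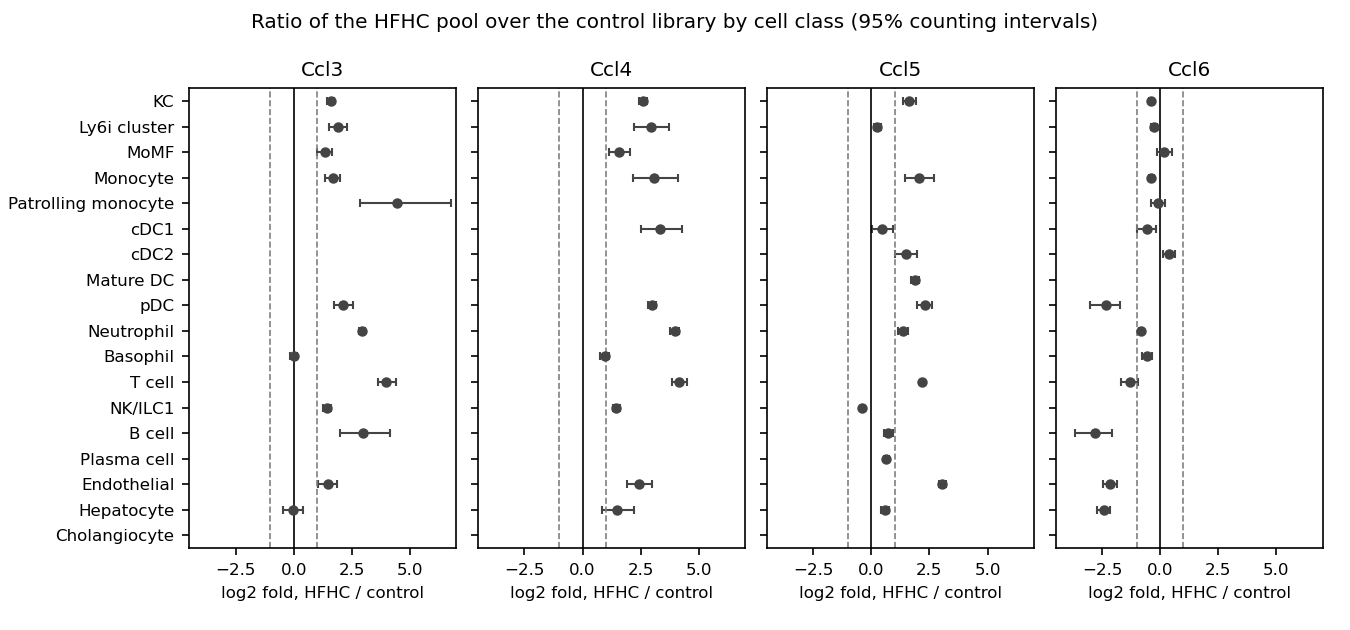
Ratio of the HFHC pool over the control library (log2 scale, x axis) for Ccl3, Ccl4, Ccl5 and Ccl6 in each class with at least 100 UMIs, with 95% counting intervals. Dashed lines mark 2-fold, the points of Ccl3 and Ccl4 lie mostly to the right of it, and those of Ccl6 lie at or left of 0 except in MoMFs and cDC2.

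In KCs, Ccl3 was at 58.6 CPM (54.6 to 62.8) in the control library and 177 CPM (163 to 191) in the HFHC pool, a ratio of 3.02 (2.71 to 3.35). With each library clustered on its own its log2 ratio was 0.95, within 2-fold. KC Ccl4 was at 36.1 and 219 CPM, a ratio of 6.07 (5.42 to 6.81). These differences lay mainly in the largest KC cluster, of 2025 control and 326 HFHC cells, with Ccl3 at 62 and 191 CPM and Ccl4 at 37.2 and 236 CPM. In the next KC cluster, of 649 and 60 cells, Ccl3 was at 29.8 CPM (21.2 to 40.8) and 26.4 CPM (10.6 to 54.4) and Ccl4 at 23.7 CPM (16.1 to 33.6) and 26.4 CPM (10.6 to 54.4), on 7 HFHC UMIs each. Of thinned KCs, 4.26% and 11% had a Ccl3 UMI (12.5% and 30.6% unthinned). MoMFs had the higher level of Ccl3 among the macrophages, with 338 and 847 CPM, and a Ccl3 UMI in 25% and 44% of thinned cells. Monocytes were at 124 and 397 CPM and the Ly6i cluster at 89.9 and 332 CPM. With no upper limit on genes MoMF Ccl3 was at 172 and 431 CPM. Its log2 ratio was 0.99, within 2-fold, with a mean over cells. Patrolling monocytes had 3 Ccl3 UMIs in the control library and 98 in the HFHC pool, a ratio of 21.9 with a counting interval of 7.26 to 108.

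Plasmacytoid DCs (pDCs), the interferon-producing dendritic cells, had Ccl3, Ccl4 and Ccl5 called higher. Their Ccl4 was at 137 CPM (123 to 153) in the control library and 1094 CPM (1045 to 1145) in the HFHC pool, and 7.15% and 36.4% of thinned pDCs had a UMI of it (14.2% and 59.4% unthinned). Ccl3 in pDCs was at 30.5 and 133 CPM, a ratio of 4.37 (3.33 to 5.78), and Ccl5 at 46.1 and 225 CPM, a ratio of 4.88 (3.93 to 6.09), with both Ccl5 levels below those of the B cells of the same library. Ccl6 was lower. At resolution 0.3, where basophils joined the pDCs, Ccl3 and Ccl6 came within 2-fold, at log2 ratios of 0.13 and -0.91. NK cells and ILC1s, counted as a single class, were at 321 and 873 CPM for Ccl3 and 417 and 1143 CPM for Ccl4, ratios of 2.72 (2.41 to 3.07) and 2.74 (2.47 to 3.05). In conventional DCs of type 1 (cDC1) Ccl4 was at 7.1 and 71.6 CPM on 13 and 114 UMIs.

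In several classes, cells with Ccl3 had Ccl4 more often than the others. Among thinned neutrophils of the HFHC pool, 52.5% of the Ccl3-positive cells had a Ccl4 UMI and 17.5% of the others did. The shares were 35.7% and 7.92% in KCs, 57.2% and 21.9% in NK cells and ILC1s, and 62.1% and 6.2% in T cells of the same pool. In the control library they were 12.2% and 3.6% in neutrophils and 8.57% and 2.55% in KCs. The intervals overlapped in NK cells and ILC1s of the control library, at 33.3% (23.6 to 44.3%) and 23.4% (19.4 to 27.8%), in MoMFs of the control library, at 30% and 10%, in monocytes of the HFHC pool, at 16.7% and 5.65%, and in hepatocytes of the HFHC pool, at 4.88% and 0.849%. These are shares of cells within 1 library and describe that library.

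Some calls rested on single cells or on levels near background. The 93 Ccl3 UMIs of HFHC B cells, a class called higher, included 66 from a single cell. Ccl4 of hepatocytes, also called higher, was at 4.26 and 11.9 CPM, and the pool's value stood below that of its B cells (22.3 CPM). A single cell held 27 of the 59 Ccl4 UMIs of those B cells. Without the highest cell of each class, the pool's Ccl4 was at 12.1 CPM in B cells and 10.6 CPM in hepatocytes.

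Genes that respond to tissue dissociation, a fixed list of 20 with many immediate early genes, stood higher in the HFHC pool in nearly every class, with median log2 ratios from 0.97 to 2.25 outside hepatocytes. The median was 1.06 in KCs (12 of 20 higher), 0.97 in neutrophils (7 of 18), 1.54 in T cells (13 of 19), 1.74 in NK cells and ILC1s (13 of 18) and 1.73 in pDCs (13 of 17). In hepatocytes it was 0.37 (6 of 19 higher, 1 lower), beside ratios of 0.989 for Ccl3 and 2.8 for Ccl4. In basophils it was 1.28 (7 of 12 higher), beside ratios of 0.999 for Ccl3 and 1.94 (1.7 to 2.22) for Ccl4. It was 1.86 in plasma cells (9 of 15) and 2.25 in cholangiocytes (11 of 14). In those classes both ligands had fewer than 100 UMIs and could not be called. A list of 20 NF-kB and inflammatory response genes had a median log2 ratio of 2.5 in neutrophils (15 of 17 higher), 1.04 in monocytes (9 of 16), 0.24 in KCs (7 of 20 higher, 2 lower) and 0.31 in T cells (2 of 17 higher, 1 lower). The part of cell handling in the Ccl3 and Ccl4 differences was not tested.

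Ccl5, a ligand made by cytotoxic lymphocytes, was concentrated in lymphoid cells. NK cells and ILC1s held 41.5% and T cells 41.3% of its UMIs in the control library, against 15.9% and 72.9% in the HFHC pool. In NK cells and ILC1s nearly every cell carried it, 97.2% and 94.5% after thinning (98.6% and 98.3% unthinned), at 10671 CPM (10469 to 10876) in the control library and 8089 CPM (7969 to 8211) in the HFHC pool. Its ratio there was 0.758 (0.74 to 0.777), below 1 and within 2-fold. In T cells it was at 1859 CPM (1824 to 1895) and 8439.5 CPM (8381 to 8499), a ratio of 4.54 (4.45 to 4.63). The share of thinned T cells with a Ccl5 UMI differed less, at 56% and 63.9% (60.4% and 72.5% unthinned), beside 3.3% and 4.02% of B cells.

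The T cell difference was unevenly spread over the 4 T cell clusters. A Cd8a cluster, in which 100% of the 29 control cells and 97.7% of the 355 HFHC cells had a UMI of Cd8a, the co-receptor of cytotoxic T cells, held 61.6% of the T cell UMIs of Ccl5 in the HFHC pool, 79.4% of those of Ccl4 and 80.6% of those of Ccl3. Ccl5 was at 9441 CPM (8752 to 10169) in its control cells and 38728 CPM (38384 to 39073) in its HFHC cells. Its HFHC cells also carried Gzmk, a granzyme, in 83.7% (3.45% of control cells), the transcription factor gene Tox in 84.2% (10.3%), the inhibitory receptor gene Lag3 in 62.8% (0 of 29 with a UMI, which allows a share of up to 10.3%) and Pdcd1 in 47.9% (6.9%).

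Among the other T cell clusters the ratios varied by gene. In the cluster with Cxcr6 in most cells, Ccl5 was at 2104 CPM in 1841 control cells and 2734 CPM in 633 HFHC cells, a ratio of 1.3 (1.26 to 1.34). The cluster with Tcf7, a gene of naive and memory T cells, was at 1071 and 4254 CPM, a ratio of 3.97 (3.77 to 4.19) whose interval overlapped that of the Cd8a cluster, 4.1 (3.81 to 4.43). A small Cxcr6 cluster was at 679 and 2171 CPM. For Ccl4 the larger Cxcr6 cluster had a ratio of 8.45 (5.14 to 14.6) on 19 and 99 UMIs, against 4.05 (2.83 to 6.03) in the Cd8a cluster. With the HFHC clusters weighted as in the control library, the T cell ratios became 1.91 for Ccl5, 4.31 for Ccl3 and 4.9 for Ccl4, against 4.54, 15.8 and 18 as counted. Without the Cd8a cluster in either library they were 2.13, 3.63 and 6.41. Ccl5 in T cells was thus within 2-fold at the makeup of the control library and just past it without the Cd8a cluster, and Ccl3 and Ccl4 were past 2-fold in both.

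**Figure D5:**
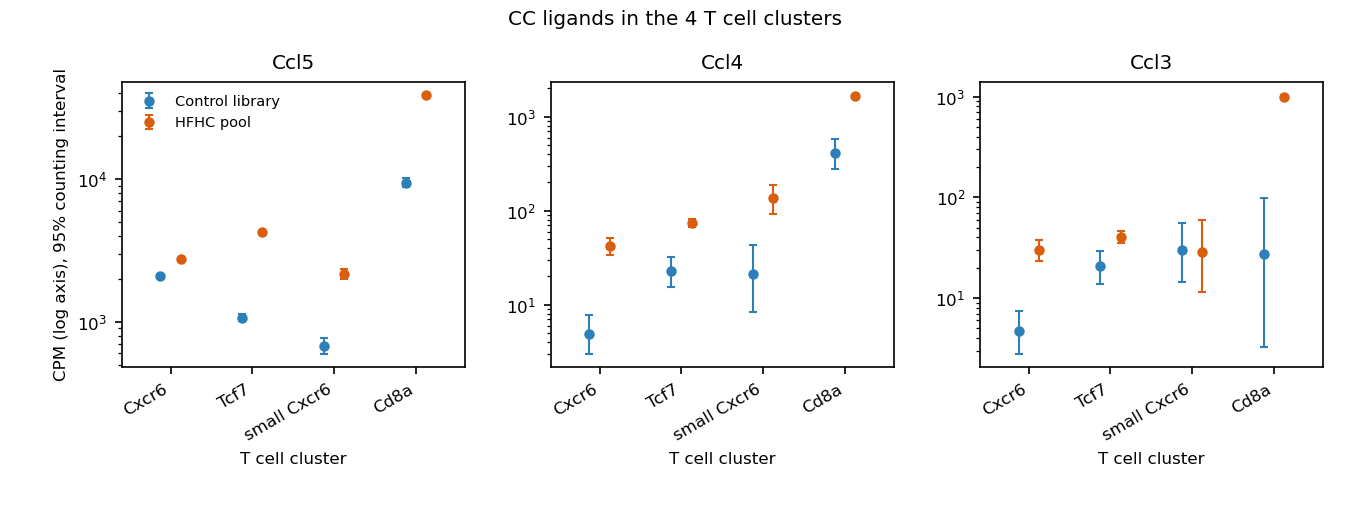
Levels of Ccl5, Ccl4 and Ccl3 (CPM on a log axis, with 95% Poisson intervals) in the 4 T cell clusters of the control library and the HFHC pool. The Cd8a cluster of the HFHC pool was highest for each gene, with 38728, 1650.0 and 990.5 CPM, and its control cells had only 2 Ccl3 UMIs.

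Mature DCs, the Ccr7-bearing migratory dendritic cells, were the other class with abundant Ccl5. They were at 2264 CPM (2012 to 2539.9) in 30 control cells and 8297 CPM (7912 to 8696) in 35 HFHC cells, a ratio of 3.66 (3.23 to 4.16), and 43.3% and 94.3% of thinned cells had a UMI of it (73.3% and 100% unthinned). NK markers summed to 7.78 and 14.3 CPM in these cells, against 11602 and 10884 CPM in NK cells and ILC1s. T cell markers summed to 529 and 424 CPM in them, against 8904 and 8886 CPM in T cells, and their part in mature DC Ccl5 was not tested. The Ly6i cluster carried Ccl5 at 671 and 803 CPM, within 2-fold.

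In several classes Ccl5 stood beside transcripts of T or NK cells. Plasma cells were at 958 and 1507 CPM, with T cell markers at 5003 and 2393 CPM. Endothelial cells were at 67.5 and 561 CPM, called higher, and in the endothelial cluster with most of it Ccl5 was at 181 and 1199.9 CPM while T cell and NK markers together were at 626 and 1182 CPM. Neutrophil Ccl5, at 137 and 355 CPM and called higher, came mostly from a small cluster of 91 and 11 cells, in which the same markers were at 7139 and 6016 CPM. Its log2 ratio, 1.37, was 0.09 with classes from each cell's own markers and 0.75 with thinned cells, both within 2-fold. In KCs Ccl5 was at 17.2 and 53.4 CPM and in monocytes at 32.4 and 134 CPM, both called higher and both below the B cells of the same library (154 and 253 CPM). Without the highest cell of each library the monocyte levels were 14.4 and 76.9 CPM. With classes from each cell's own markers the monocyte log2 ratio was -0.12. The part of lymphocyte RNA in these levels was not tested.

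Ccl6 and Ccl9, the rodent Ccr1 ligands, were myeloid and basophil transcripts and lay mostly within 2-fold between the libraries. Ccl6 was at 3444 CPM (3384 to 3505) in neutrophils of the control library and 1923 CPM in those of the HFHC pool, a ratio of 0.558 (0.53 to 0.588). In KCs it was at 1215 CPM (1196 to 1233) and 916 CPM (885 to 948), in monocytes at 1575 and 1204 CPM and in basophils at 3695 and 2479.9 CPM. Neutrophils carried less Ccl6 in the library in which they carried more Ccl3 and Ccl4. Of thinned neutrophils, 87.1% and 68.8% had a Ccl6 UMI (86.2% and 79% unthinned), and of thinned KCs 65.5% and 53.3% (87.7% and 91.4% unthinned).

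The 5 classes in which Ccl6 was lower in the HFHC pool were T cells, B cells, pDCs, endothelial cells and hepatocytes, in which it was low in either library. B cells were at 45.3 and 6.43 CPM, hepatocytes at 60.2 and 11.2 CPM, endothelial cells at 104 and 23.3 CPM, pDCs at 72.3 and 14.2 CPM and T cells at 29.3 and 11.8 CPM. Neutrophil markers differed in the same direction in these classes, with summed levels of 386 and 32.5 CPM in B cells, 742 and 73.9 CPM in hepatocytes and 592 and 36.5 CPM in endothelial cells. KC markers also stood lower in the HFHC pool in these classes, at 287 and 164 CPM in B cells, 651 and 275 CPM in hepatocytes and 1616 and 691 CPM in endothelial cells. The part of neutrophil or KC RNA in the Ccl6 calls was not tested.

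Ccl9 was highest after basophils in monocytes, at 1169 CPM (1094 to 1248) in the control library and 905 CPM (854 to 958) in the HFHC pool. The Ly6i cluster was at 609.6 and 622 CPM, a ratio of 1.02 (0.913 to 1.14), and conventional DCs of type 2 (cDC2) at 318 and 424 CPM. KCs were far lower, at 71.9 and 49.8 CPM, although they carried much Ccl6. In basophils Ccl9 was at 3151 and 1566 CPM, a ratio of 0.497 (0.41 to 0.6) that just passed 2-fold. It was within 2-fold in 4 of 12 alternatives, up to a log2 ratio of -0.44. Hepatocytes carried Ccl9 at 85 CPM (77.3 to 93.4) and 57.6 CPM (53.7 to 61.6), where B cells had 4.48 and 9.45 CPM, and 6.53% and 4.89% of thinned hepatocytes had a UMI of it beside 0.388% and 0.828% of B cells (unthinned 5.13% and 7.28% of hepatocytes).

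Ccl24, the Ccr3 ligand, was mainly a KC transcript, with 74.5% of its UMIs in KCs of the control library and 78.8% in the HFHC pool. Its KC level was 202 CPM (194 to 209) and 193 CPM (179 to 208), a ratio of 0.957 (0.88 to 1.04), which did not exceed counting error. Ccl24 was in 16.3% and 12% of thinned KCs (49.1% and 49.2% unthinned), and in 0.0971% of B cells of the control library and 0 of 845 in the HFHC pool, which allows a share of up to 0.355%.

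The Ly6i cluster differed for Ccl24. It was at 299 CPM (260.4 to 342) in the 150 cells of the control library and 31.3 CPM (23.9 to 40.3) in the 279 cells of the HFHC pool, 9.56-fold lower (7.15 to 13). Few cells carried it, 27 and 7, and 1 cell held 63.3% of the HFHC UMIs. Without the highest cell of each library the levels were 238 and 11.6 CPM. KC markers summed to 369 and 274 CPM in the cluster, against 24415 and 21435 CPM in KCs.

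Ccl22, the Ccr4 ligand, was highest in level in mature DCs, but its UMIs were spread over several classes. In the control library cDC1 held 41.5% of them, mature DCs 35.5% and the Ly6i cluster 9.59%, and in the HFHC pool mature DCs held 25.5%, the Ly6i cluster 25.1%, cDC2 23.9% and cDC1 11.5%. The Ly6i cluster was at 98.3 and 85.5 CPM, a ratio of 0.87 (0.654 to 1.17). Mature DCs were at 2015 CPM (1777 to 2276) in the control library and 795 CPM (679 to 925) in the HFHC pool, 2.54-fold lower (2.08 to 3.1), and 36.7% and 25.7% of thinned cells had a UMI (56.7% and 60% unthinned). A single mature DC held 92 of the 167 HFHC UMIs, and without the highest cell of each library the levels were 1602 and 381 CPM, a log2 ratio of -2.06. With classes taken from each cell's own markers the log2 ratio was -0.76, within 2-fold. The other DCs went in different directions, with cDC1 at 165 and 47.1 CPM and cDC2 at 55.3 and 173 CPM, though neither direction held in every alternative. These values rested on few cells: 5 cells of the control library and 9 of the HFHC pool held 50% of all its UMIs, and 1 cDC1 of the control library held 213 of the 303 UMIs of that class. Without the highest cell of each library the cDC1 levels were 49.5 and 28.5 CPM, within 2-fold.

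Among 14 other CC ligands, 11 had a UMI in either library and 2, Ccl25 and Ccl27a, had at least 100 in each, at no more than 17.8 CPM in any class. Ccl17, which shares the receptor Ccr4 with Ccl22, falls outside that rule and is given here after its values were seen. It had 478 UMIs in 109 cells of the control library and 11 in 6 cells of the HFHC pool. In mature DCs it was at 817 CPM in 11 cells of the control library and had 0 UMIs in the HFHC pool, at least 57.2-fold lower when 3 counts per class are set as the floor. In the Ly6i cluster it was at 191 CPM and 0 UMIs, at least 122-fold lower, although 7 cells held those UMIs.

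Receptors of these ligands were measured in the same cells. Of 15 CC receptors and related genes, 11 had at least 100 UMIs in each library. Ccr2, the receptor of Ccl2, Ccl7 and Ccl12, was highest in monocytes, at 1794 and 2836 CPM. Ccr1 was at 807 and 1042 CPM in neutrophils, and both receptors lay within 2-fold in these classes. Ccr9, a homing receptor for the gut, marked pDCs at 2099.8 and 2089 CPM but was also a marker used to name them. Ccrl2, a receptor that binds chemerin, was at 95.4 and 1491 CPM in neutrophils, 32.2 and 149 CPM in KCs and 22 and 162 CPM in monocytes, and was called higher in each. Other receptors were lower, among them Ccr3 in KCs, at 28.6 and 5.81 CPM, and Ccr1 in the Ly6i cluster, at 96.9 and 31.8 CPM.

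By level over the 18 classes of both libraries (36 points that share 2 libraries and their depth), the genes closest to a member were taken by Pearson r of log2(CPM + 1) among 11891 genes. Ccl3 and Ccl4 were among the closest to each other (r = 0.85), with Lilrb4a and Lilr4b beside Ccl3, and Tnfaip3, an inhibitor of NF-kB signalling, and Lilr4b beside Ccl4. Ccl6 was closest to Emilin2, Cd300lb and Lst1 (r from 0.90 to 0.92), and Ccl9 to Krt80, Ccl6 and Igsf6. Ccl2 was closest to Slc8a1, Batf2 and Tlr8, Ccl7 to C1qa, Kcnj10 and Mmp13, and Ccl12 to Olfml3, Mmp13 and Sectm1a. Genes other than the members had at least 100 UMIs in each library. Ccl7 and Ccl12 did not reach that in the HFHC pool (92 and 40 UMIs), so their closest genes rest on few UMIs. Ccl24 was closest to Lpl, C1qb and Sectm1a, with C1qa and C1qb encoding chains of complement C1q. Ccl5 was closest to Tnfrsf9, an activation receptor of T cells, Gpc1 and Rasgef1a, and Ccl22 to Bcl2l14, Apol7c and Tlr11.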

How the data were processed

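The authors deposited 1 table of whole-number counts per library: error-corrected UMIs per gene in each cell, made by the BD Rhapsody WTA Analysis Pipeline 1.10.1 with GENCODE vM19 on GRCm38 per the file headers, with no scaling. The submitters' processing notes also name Seurat. UMIs are read from transcript 3′ ends, so levels were compared between classes and libraries within a gene. The third sample, a Sample Tag library, was not used here.

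Cells with 200 to 4000 genes and at most 25% mitochondrial UMIs were kept, following the study. Libraries were normalized by SCTransform, integrated by reciprocal PCA on 4000 variable genes without the CC ligands, and clustered at resolution 0.8, giving 25 clusters. Monocyte and macrophage clusters were clustered again at 0.5 into 14 (Seurat 5.3.0, SeuratObject 5.2.0, sctransform 0.4.2 and R 4.3.3). Clusters took names from marker lists, with the name thresholds set after the clusters were seen. Doublets were not taken out: Scrublet, run with scanpy 1.11.5, called 8.17% of control and 2% of HFHC cells. UMIs were summed per class and library. No test between libraries was run, since each condition had 1 library. Ratios had 1 UMI added for the call. The calling step was run on simulated Poisson counts of class totals with planted changes larger than 2-fold. That run checks the calculation only, since it holds no UMIs concentrated in single cells. Gene coordinates came from a GENCODE annotation of GRCm38.

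Named genes were the 10 members, other CC ligands and CC receptors with at least 100 UMIs in each library, and the 3 genes closest to each member. Members and lists were chosen with earlier results of these data known. Alternatives covered class assignment, resolution, integration, filters, doublets, scaling, thinning and the UMI minimum.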

Additional observations from a re-analysis of the deposited data

Results flagged for a closer look

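Ccl22 differed in opposite directions in the conventional DCs: on the log2 scale, the level in the HFHC pool over that in the control library was 1.61 in cDC2 and -1.80 in cDC1. The difference between these classes was not tested, and a single cDC1 held 213 of the 303 UMIs of the control library. Neither direction held in every alternative: cDC2 was at -0.39 with each library clustered on its own, and cDC1 at 0.07 with classes from each cell's own markers.

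Cells over 4000 genes, which the levels leave out, held 62.8% of the Ccl6 UMIs of the HFHC pool, 61% of those of Ccl7, 76.3% of those of Ccl12 and 78% of those of Ccl24. The 600 of them with KC markers held 14518940 UMIs of all genes, beside 3615211 in the kept KCs. Such shares are thus not particular to these ligands. With no upper limit, KCs were 2054 cells of the control library and 744 of the HFHC pool. Ccl24 was then at 194 and 225 CPM in KCs, Ccl6 at 1231 and 1075 CPM and Ccl3 at 61.6 and 154 CPM.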

How the results depend on the processing

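No paired analysis was possible because each condition had 1 library. For the same reason no replicate could be left out. Of the 34 higher and 9 lower ratios, 33 were followed through the alternatives. Those in patrolling monocytes, B cells, endothelial cells and hepatocytes were not. Each followed ratio had between 10 and 15 alternatives. Of the 33, 19 passed 2-fold in every alternative run for them and 14 were lost in at least 1. Among the 19 were Ccl3 and Ccl4 in neutrophils, monocytes, NK cells and T cells, Ccl4 in KCs, Ccl5 in mature DCs and Ccl24 in the Ly6i cluster. Ccl3 in KCs was at 0.95 (log2) when each library was clustered on its own, and Ccl5 in T cells at 0.93 at the makeup of the control library, an alternative added after the data were seen, as were taking off the B cell level and leaving out the highest cell of each class. Of 741 values of 58 ratios, 4 reversed: with classes from each cell's own markers, Ccl22 in cDC1 was at 0.07 and Ccl5 in monocytes at -0.12, and with each library clustered on its own, Ccl22 in cDC2 was at -0.39 and Ccl5 in cDC2 at -0.83. With cells thinned, 40 pairs had 100 UMIs, of which 16 were higher and 3 lower, the smaller number of UMIs being part of that alternative. The share of all genes called in thinned cells is not given here, so these counts are not a result about the ligands. With at least 20 UMIs, 19 of 104 pairs were lower. The higher pairs and the share of all genes at that minimum are not given here. That count is therefore not a result about the ligands. The class with the highest level was unchanged in 12 of 20 pairs of a ligand and a library at resolution 0.3, where basophils joined the pDCs, and in 11 with each library on its own. The class holding most UMIs was unchanged in 13 of 20 with each library on its own and in 12 with thinned cells. Spearman's rho gave 14 of the 30 closest genes. Counting error limits Ccl7 and Ccl12 outside KCs, and Ccl22 rests on few cells.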
